A study of Mus musculus with 16 samples.

Results

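The genes of cholesterol synthesis and lipogenesis were followed in mouse kidney after cisplatin, a platinum drug that injures the renal tubule. They were 36 of the 46078 genes in the expression table, chosen by symbol from what their products are known to do, and all 36 were found. They comprised 16 enzymes of sterol synthesis, 5 regulators of that pathway, 2 sterol exporters and 13 genes of fatty acid synthesis, elongation and desaturation. Kidneys came from C57BL/6 mice aged 20 weeks and were taken 72 h after an intraperitoneal injection, in 4 groups of 4 libraries. Without preconditioning, mice received cisplatin (BL_cisplatin, called cisplatin alone here) or saline of 0.9% (BL_vehicle). Of the preconditioned groups, CR_cisplatin was calorie-restricted for 4 weeks and HP_cisplatin was kept in hypoxia for 2, 4 and 8 h on consecutive days, and both were then given cisplatin. No preconditioned group received saline, so what calorie restriction or hypoxia does without cisplatin was not measured.

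Cells make cholesterol from acetyl-CoA through the mevalonate pathway and a series of sterol intermediates. When sterol in the endoplasmic reticulum is low, SCAP carries the SREBP transcription factors to the Golgi, where they are cut free and then switch on the genes of sterol and fatty acid synthesis. INSIG proteins hold SCAP back when sterol is plentiful, and oxysterols act through LXR receptors on exporters such as ABCA1 and ABCG1. The kidney tubule makes and takes up lipid, while adipocytes in the fat around the kidney make fatty acids with many of the same enzymes.

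Levels are given in TPM, a read count divided by exon length and scaled to the same sum in every library, so that levels can be compared between genes. Differences are between group means of log2(TPM + 1), a scale that compresses changes near 1 TPM. It was tested with limma on the 15014 genes that reached 1 TPM in 4 or more libraries, with Benjamini-Hochberg adjustment over those genes and a threshold of 0.05, and a gene is called changed only if it passed. Of the members, 35 were tested. Fdps, which encodes farnesyl diphosphate synthase, was not, at 0.441 to 0.676 TPM in all libraries. Its level is uncertain, since 7 other genes have transcripts nearly identical to it. Among them are Gm3571 (98.87% over 1062 bases) and Gm43738 (100% over 929 bases). Between 49173914 and 62594316 reads per library could be recovered from the table, and a tested member had between 163 and 57922 reads in a library. The labels do not say that the libraries came from separate mice, and p-values measure the spread between libraries.

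The libraries CR_cisplatin 4 and HP_cisplatin 4, of different groups, were nearly alike. Their median chi-square per gene was 0.822, where counting error alone gives 0.455 and the lowest of the other 119 pairs of libraries was 1.52. Over the members they differed by a median of 0.03 and at most by 0.20 on the log2 scale (Pmvk). HP_cisplatin 4 had a median chi-square of 0.822 to 2.46 against the CR_cisplatin libraries, 2.38 to 4.23 against vehicle and 11.2 to 31 against the other 3 libraries of its own group. The values of the library labelled HP_cisplatin 4 thus go against its group, and whether a label or a library is misplaced cannot be told from the table. Means of the hypoxia group rest on it, and the main differences are given with and without it. Kidney identity held in every vehicle library: Lrp2, the endocytic receptor of the proximal tubule, stood between 472.2 and 522.1 TPM and Umod, made in the thick ascending limb, between 1012 and 1743 TPM. The adrenal enzymes Cyp11b1 and Cyp11b2 were listed at 0 in all 16 libraries and Cyp11a1 at no more than 0.0334 TPM. A summed set of 10 adrenal genes, which also holds Scarb1 and Star, was 3.14 to 4.05 TPM in vehicle and 6.09 to 6.91 TPM after cisplatin alone. Adipocyte transcripts varied among libraries within each group. Adipoq, the gene of the fat hormone adiponectin, was at 7.31 TPM in BL_vehicle 3, 20.3 in BL_cisplatin 4, 14.9 in CR_cisplatin 4, 20.1 in HP_cisplatin 2 and 14.2 in HP_cisplatin 4, and at no more than 1.61 TPM in the other libraries.

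The promoters of 3 sterol enzymes and 1 fatty acid gene, those with the widest falls after cisplatin in their arms, are shown because SREBP is known to act there together with the factors NF-Y and Sp1. Each window runs from 250 bases before to 50 bases after the RefSeq start, 5′ to 3′ on the gene's strand (GRCm38.p6). Capitals mark the CCAAT box that NF-Y binds (CCAAT on either strand, so also ATTGG) and the core of a sterol regulatory element (TCACNCCAC on either strand), which do not overlap in these windows. The windows are chr13:119690101-119690400 on the plus strand for Hmgcs1, chr8:122443373-122443672 on the minus strand for Mvd, chr5:4104648-4104947 on the minus strand for Cyp51 and chr2:155517793-155518092 on the plus strand for Acss2.
Hmgcs1: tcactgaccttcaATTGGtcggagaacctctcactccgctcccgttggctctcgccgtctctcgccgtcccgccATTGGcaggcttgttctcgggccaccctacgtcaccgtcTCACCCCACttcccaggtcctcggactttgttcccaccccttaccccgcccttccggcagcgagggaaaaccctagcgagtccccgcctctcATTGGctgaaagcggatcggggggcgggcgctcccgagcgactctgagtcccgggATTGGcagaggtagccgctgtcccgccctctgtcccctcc
Mvd: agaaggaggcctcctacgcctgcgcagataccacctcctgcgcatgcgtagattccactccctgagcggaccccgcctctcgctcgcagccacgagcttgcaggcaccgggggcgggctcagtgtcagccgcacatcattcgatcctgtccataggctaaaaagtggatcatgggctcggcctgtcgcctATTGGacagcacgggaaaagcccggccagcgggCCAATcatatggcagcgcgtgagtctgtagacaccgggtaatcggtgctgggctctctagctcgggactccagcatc
Cyp51: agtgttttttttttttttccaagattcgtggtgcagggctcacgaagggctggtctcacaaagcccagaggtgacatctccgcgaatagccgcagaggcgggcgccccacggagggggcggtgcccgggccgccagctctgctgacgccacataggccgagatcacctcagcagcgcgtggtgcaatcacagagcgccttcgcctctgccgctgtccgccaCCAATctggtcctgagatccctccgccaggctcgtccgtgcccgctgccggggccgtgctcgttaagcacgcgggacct
Acss2: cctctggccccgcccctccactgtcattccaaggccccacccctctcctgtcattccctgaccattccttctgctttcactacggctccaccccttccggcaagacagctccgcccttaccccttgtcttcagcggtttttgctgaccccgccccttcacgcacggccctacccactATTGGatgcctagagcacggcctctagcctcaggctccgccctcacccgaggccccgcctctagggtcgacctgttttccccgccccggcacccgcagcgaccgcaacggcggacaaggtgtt
Hmgcs1 held 4 CCAAT boxes and the 1 sterol regulatory element core, Mvd held 2 CCAAT boxes, and Cyp51 and Acss2 held 1 each. Promoters were at hand for 29 members, with 39 starts between them. Fdft1, Fads1, Scd2, Abcg1, Fdps, Sqle and Scd1 had none. A CCAAT box was present in 24 of the 39 windows (61.5%) and in 37.4% of all 32851 promoters of that length. Among the sterol synthesis enzymes it was present in 12 of 16 windows. The GC box that Sp1 binds (GGGCGG on either strand) was present in 28 of 39 windows against 35.7% of all promoters, and the E-box CACGTG in 8 of 39 against 7.15%. The strict core of the sterol regulatory element was present in 1 of 39 against 1.24% of all promoters. These shares describe letters in short windows and were not tested.

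Cisplatin alone was followed by lower levels of most sterol synthesis enzymes and of a part of the fatty acid genes. Of 35 members, 18 fell and 2 rose, where 28.8% of all tested genes fell and 38% rose. The median difference of the members was -0.58, beside 0.08 over all tested genes. Sterol synthesis enzymes fell in 10 of 15 cases and rose in none, with a median of -0.75. Fatty acid genes fell in 6 of 13 and rose in 1, with a median of -0.68.

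The enzymes of the mevalonate segment did not move as a block. Hmgcs1, the HMG-CoA synthase that commits acetyl units to the pathway, measured 165, 139, 132 and 152 TPM in the vehicle libraries and 41.2, 32.3, 33.1 and 49.6 TPM after cisplatin alone. All 4 cisplatin libraries were below all vehicle libraries, and the difference was -1.90 (SE 0.23, adjusted p = 4.53e-05). Mvd, which decarboxylates mevalonate diphosphate, measured 23.2, 24.1, 21.3 and 23.3 TPM in vehicle and 5.26, 4.51, 5 and 4.65 TPM after cisplatin. The cisplatin libraries lay within less than 1 TPM of each other and far below vehicle (-2.04, SE 0.26, adjusted p = 4.99e-05). Idi1, the isomerase that makes dimethylallyl diphosphate, fell from 7.86 ± 1.45 to 2.7 ± 0.192 TPM (SD, n = 4 each) and Mvk, mevalonate kinase, from 4.1 ± 0.264 to 2.06 ± 0.502 TPM. Pmvk, the phosphomevalonate kinase that acts between Mvk and Mvd, measured 6.8 ± 1.26 and 6.88 ± 0.251 TPM, with overlapping libraries and a 95% interval of the difference of -0.20 to 0.26. Acat2, an acetoacetyl-CoA thiolase at the head of the pathway, measured 31.5 and 33.1 TPM and also overlapped. Its count is uncertain, since Acat3 is 97.7% identical to it over 1477 bases and stood at 11.9 to 17.9 TPM in vehicle and 57.4 to 79.4 TPM after cisplatin. The same holds for Idi1, which shares stretches of 684 bases at full identity and 681 bases at 97.7% with Gm13502 and Gm35570. Hmgcs1 shares 462 bases at full identity with Gm48342.

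Among the enzymes after squalene, the lanosterol demethylase Cyp51 showed the widest difference of any member. Its vehicle libraries measured 53.7, 51.4, 53.6 and 36.3 TPM and its cisplatin libraries 4.52, 4.16, 4.86 and 5.04 TPM. The groups were far apart, with a vehicle mean 10.5 times the cisplatin mean and a difference of -3.12 (SE 0.48, adjusted p = 0.000101). Ebp, the sterol isomerase, fell from 22.2 ± 1.08 to 7.63 ± 0.98 TPM, and Nsdhl, which takes part in removing methyl groups from sterols, from 10.8 ± 0.444 to 3.92 ± 0.431 TPM. Sc5d, the lathosterol desaturase, fell by 0.76, Lss, lanosterol synthase, by 0.51 and Dhcr7, which makes cholesterol from 7-dehydrocholesterol, by 0.33. All 3 had vehicle libraries that lay above all cisplatin libraries. Sqle, squalene epoxidase, measured 8.67, 7.50, 7.28 and 7.12 TPM in vehicle and 5.69, 5.43, 5.45 and 7.92 TPM after cisplatin, and did not pass (-0.29, adjusted p = 0.0647). BL_cisplatin 4 alone lay within the vehicle range, and without it the adjusted p was 0.0107. Fdft1, squalene synthase, and Hsd17b7, a sterol ketoreductase, had differences of 0.12 and 0.22 and did not pass. Fdft1 shares 774 bases of transcript with Ctsb, a cathepsin gene at 95.8 to 140.3 TPM, so its level is uncertain too.

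**Figure D1:**
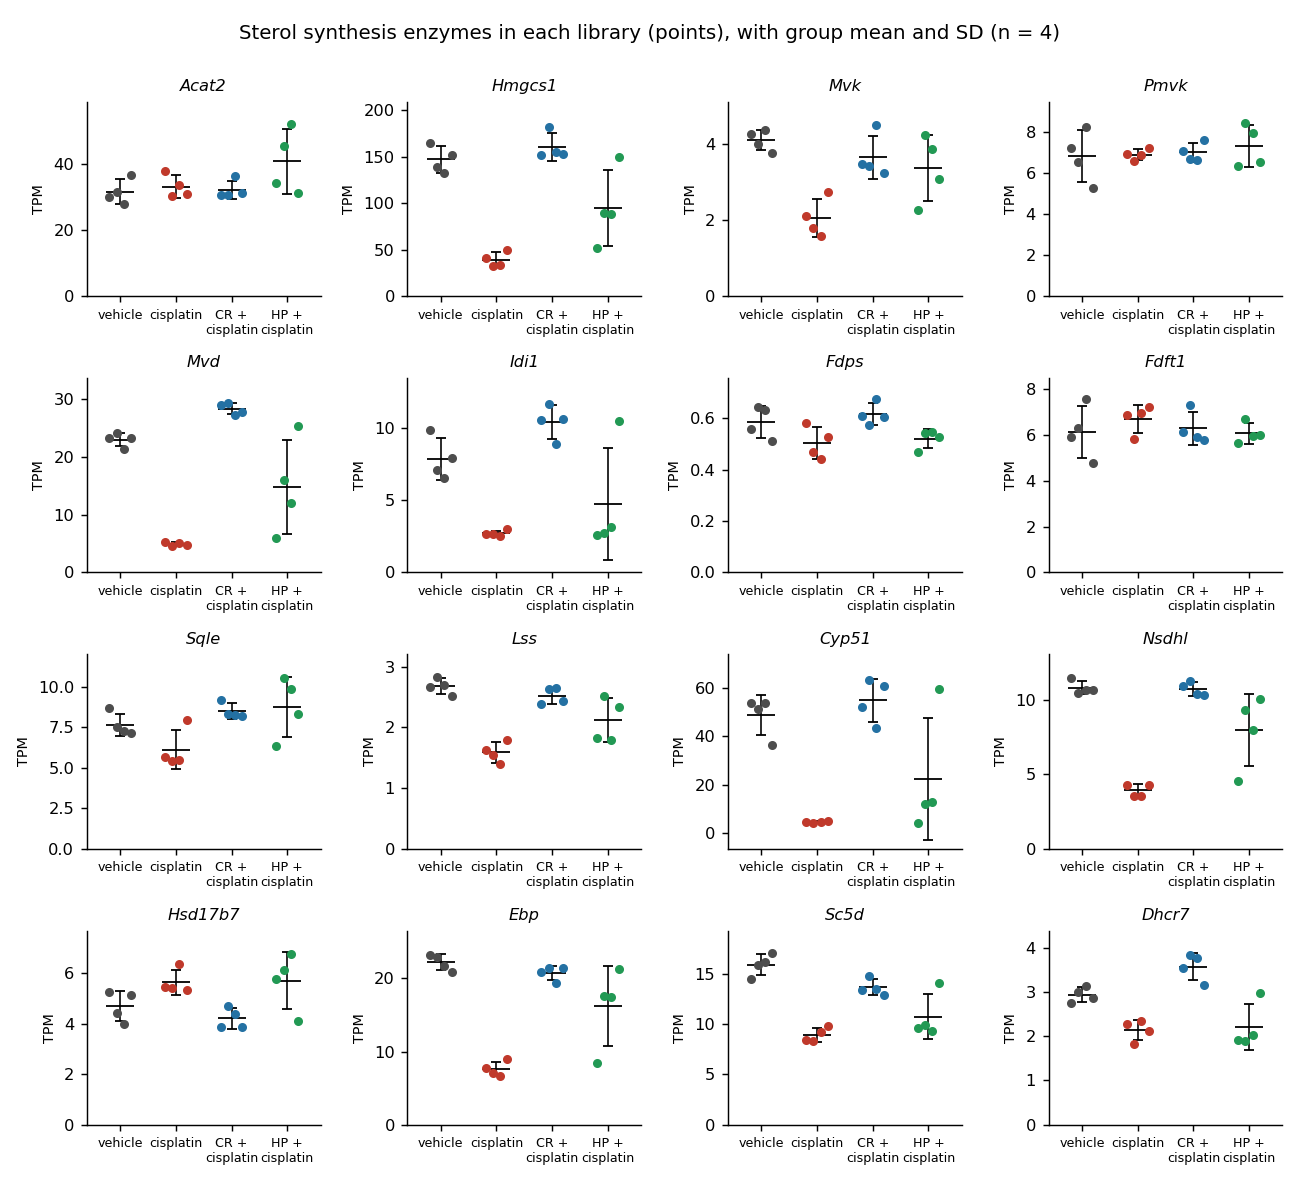
TPM of the 16 sterol synthesis enzymes in each of the 16 libraries (points, vertical axis in TPM), grouped along the horizontal axis as vehicle, cisplatin, calorie restriction (CR) plus cisplatin and hypoxia (HP) plus cisplatin. Black bars are group means with SD (n = 4). For Cyp51 the 4 cisplatin points lie between 4.16 and 5.04 TPM, below every vehicle and CR point, while the HP points run from 4.42 to 59.5 TPM.

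Of the 5 regulators 1 fell and 1 rose. Insig1, which retains SCAP and is itself a SREBP target, measured 11.4, 13.3, 14.2 and 8.68 TPM in vehicle and 6.44, 7.13, 7.30 and 6.79 TPM after cisplatin. No libraries overlapped, and the difference was -0.68 (SE 0.20, adjusted p = 0.00808). Insig2 measured 7.93 and 7.41 TPM, Srebf1 10.6 and 9.80 TPM and Srebf2 10.8 and 11.7 TPM, none past the threshold. Intervals of the difference were -0.31 to 0.13 for Srebf1 and -0.09 to 0.31 for Srebf2, the genes of the SREBP factors themselves. Scap rose from 16.3 ± 0.433 to 19.3 ± 0.226 TPM (0.23, adjusted p = 0.0493), a call lost on leaving out any of 14 of the 16 libraries in turn (adjusted p up to 0.104). The level of an SREBP transcript does not show how much of the protein is cut and active, which was not measured here.

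Of the exporters, Abcg1 fell from 3.55 ± 1.14 to 2.03 ± 1.01 TPM (-0.60, adjusted p = 0.0307), with overlapping libraries. That call was lost on leaving out any of 5 libraries in turn (BL_cisplatin 1, 2 or 3, BL_vehicle 2 or 3, adjusted p up to 0.0994). Abca1 measured 8.34 ± 1.57 and 8.42 ± 2.31 TPM and did not pass.

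Fatty acid genes divided into some with tight groups and others whose libraries were scattered. Acss2, which makes acetyl-CoA from acetate, measured 30.9, 31.7, 33.4 and 31.2 TPM in vehicle and 5.03, 4.65, 4.79 and 4.81 TPM after cisplatin. The vehicle mean was 6.60 times the cisplatin mean and the groups were far apart (-2.50, SE 0.27, adjusted p = 3.57e-05). Fads2 and Fads1, the front-end desaturases of polyunsaturated fatty acids, fell by 1.67 and 0.88, Me1, the malic enzyme that supplies NADPH, by 0.78 and Acly, the citrate lyase, by 0.58. In these 4 genes no library of 1 group entered the range of the other. Me1 shares 1716 bases at 98.4% identity with Gm7049, so its level is uncertain too. Scd2 fell by 0.69 (adjusted p = 0.0179) with overlapping libraries, a call lost without BL_cisplatin 2 (adjusted p = 0.0629), and 623 of its bases are 95.5% identical to Scd1. Elovl6, the elongase of palmitate, rose from 3.81 ± 1.43 to 6.87 ± 1.76 TPM (0.73, adjusted p = 0.0137) with overlapping libraries, and did not pass without BL_vehicle 4 (adjusted p = 0.0509). Elovl1 and Elovl5 had differences of 0.10 and -0.06 and did not pass.

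Fasn, Scd1 and Acaca, classic lipogenic enzymes, did not pass in this comparison, and neither did Acacb. Scd1, the stearoyl-CoA desaturase, measured 23.3, 39.7, 156.6 and 10.7 TPM in vehicle and 5.86, 5.79, 6.74 and 69.1 TPM after cisplatin. In each group the library with Adipoq of at least 5 TPM was the high one. Fasn, the fatty acid synthase, measured 16.3, 15.9, 56.9 and 13.2 TPM in vehicle and 18, 18.1, 15 and 27.5 TPM after cisplatin. Here too BL_vehicle 3 and BL_cisplatin 4 stood above the others. Acaca, the acetyl-CoA carboxylase of the cytosol, measured 4.24, 4.14, 8.29 and 3.51 TPM in vehicle. After cisplatin it measured 2.37, 2.01, 2.08 and 4.5 TPM. Its level is uncertain, since it shares 6118 bases at 99.2% identity with Gm5182.

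The same order was found in all 4 groups. Scd1, Fasn, Acaca, Acacb, Acly and Srebf1 were each higher in every library with Adipoq of at least 5 TPM than in every other library of its group, in 4 of 4 groups. Fasn was between 13.2 and 18.9 TPM in the 11 libraries with little Adipoq and between 19.5 and 81.9 TPM in the other 5. No sterol synthesis enzyme showed that order in all 4 groups, though Pmvk and Fdft1 did in 3. Of the fatty acid genes Me1 and Elovl1 showed it in none. The 4 groups are not fully separate instances, since CR_cisplatin 4 and HP_cisplatin 4 were nearly alike. Of the adipocyte set of 10 genes, Plin1, Retn and Fabp4 were higher in those 5 libraries than in any of the others and Cfd reached 31.5 to 141.5 TPM there against at most 6.09 TPM elsewhere. Plin4 and Cidec did not follow that order: in BL_cisplatin 1 to 3, with little Adipoq, they stood at 16, 22.5 and 23.1 TPM and at 14.4, 16.4 and 22 TPM, above BL_vehicle 3 at 4.15 and 8.86 TPM. Lpl, which the kidney also makes, was at 63.2 to 113.2 TPM in vehicle libraries. The summed set ranged from 85.9 to 142 TPM in vehicle, 47.7 to 315.4 after cisplatin alone, 96.4 to 269.9 with calorie restriction and 41.7 to 277.9 with hypoxia. Ucp1, a gene of brown fat, was at 3.53 TPM in BL_vehicle 3, 106.9 in BL_cisplatin 4, 37.5 in CR_cisplatin 4, 23.8 in HP_cisplatin 2 and 35.7 in HP_cisplatin 4, and at no more than 0.146 TPM elsewhere. The part of fat-derived RNA in the lipogenic values was not tested. Leaving out those 5 libraries, a choice made after the data were seen, Scd1 (-1.67, adjusted p = 0.00562) and Acaca (-0.65, adjusted p = 5.34e-05) passed as lower after cisplatin. Fasn did not (0.16, adjusted p = 0.228), nor did Acacb (-0.34, adjusted p = 0.12). The members that fell or rose were then 21 and 2, counts given without the shares of all tested genes.

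**Figure D2:**
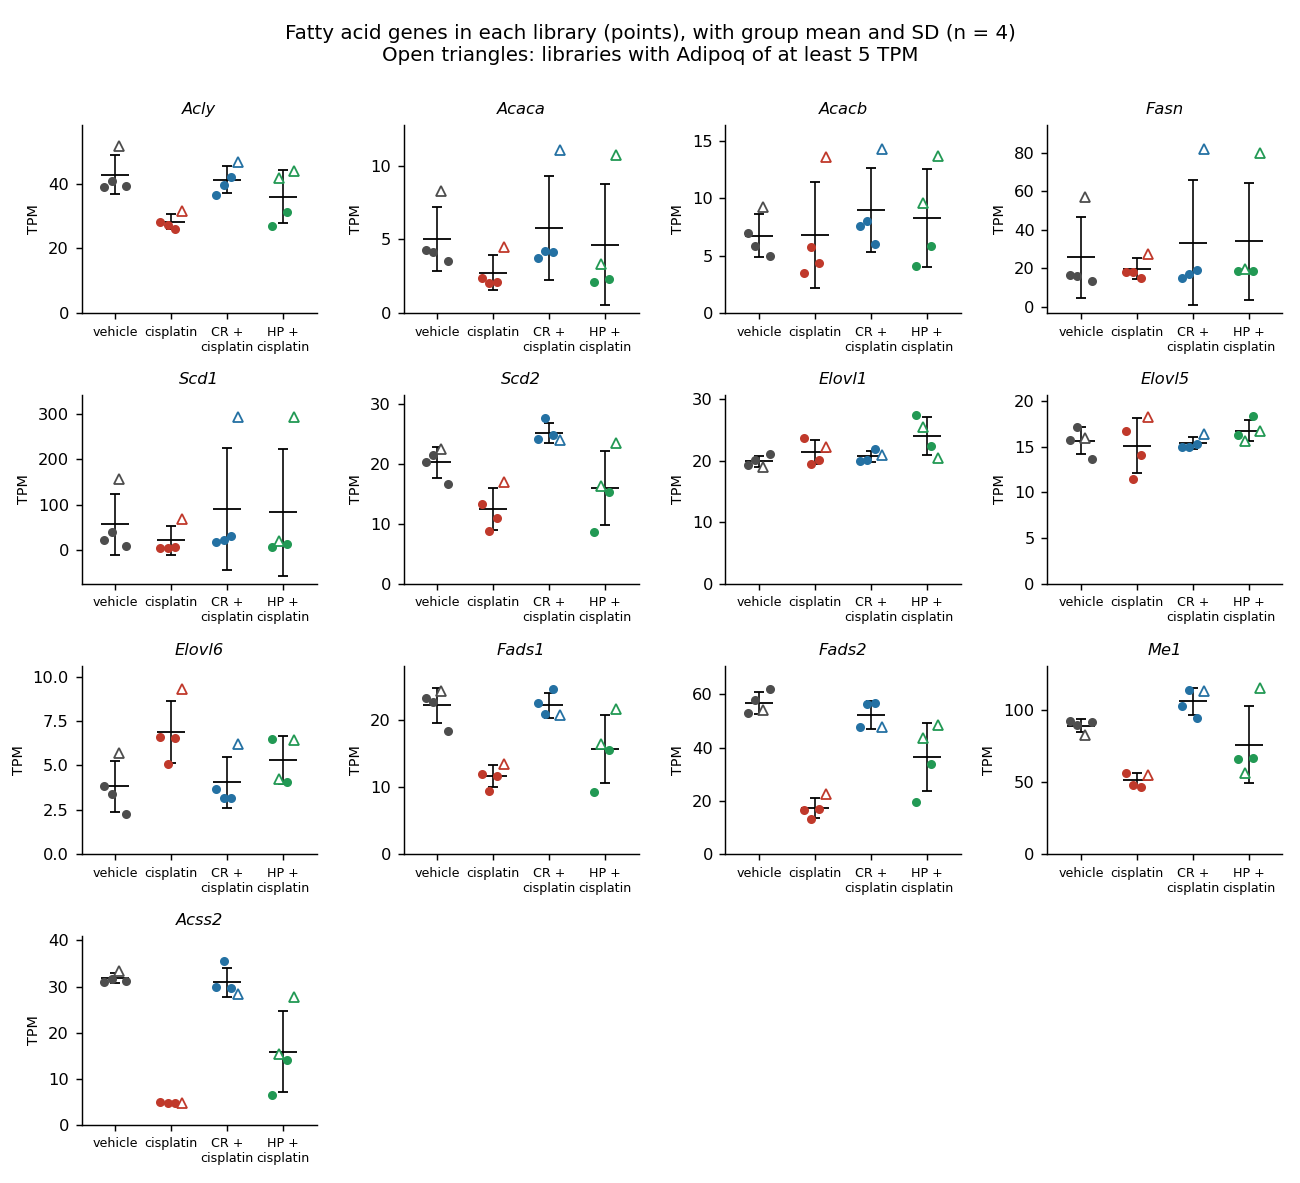
TPM of the 13 fatty acid genes in each library (points, vertical axis in TPM), by group along the horizontal axis, with group mean and SD (n = 4, black). Open triangles mark the 5 libraries with Adipoq of at least 5 TPM, which hold the highest Scd1 and Fasn values in each of the 4 groups. For Acss2 and Fads2 they are above all others in 2 of 4 groups.

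**Figure D3:**
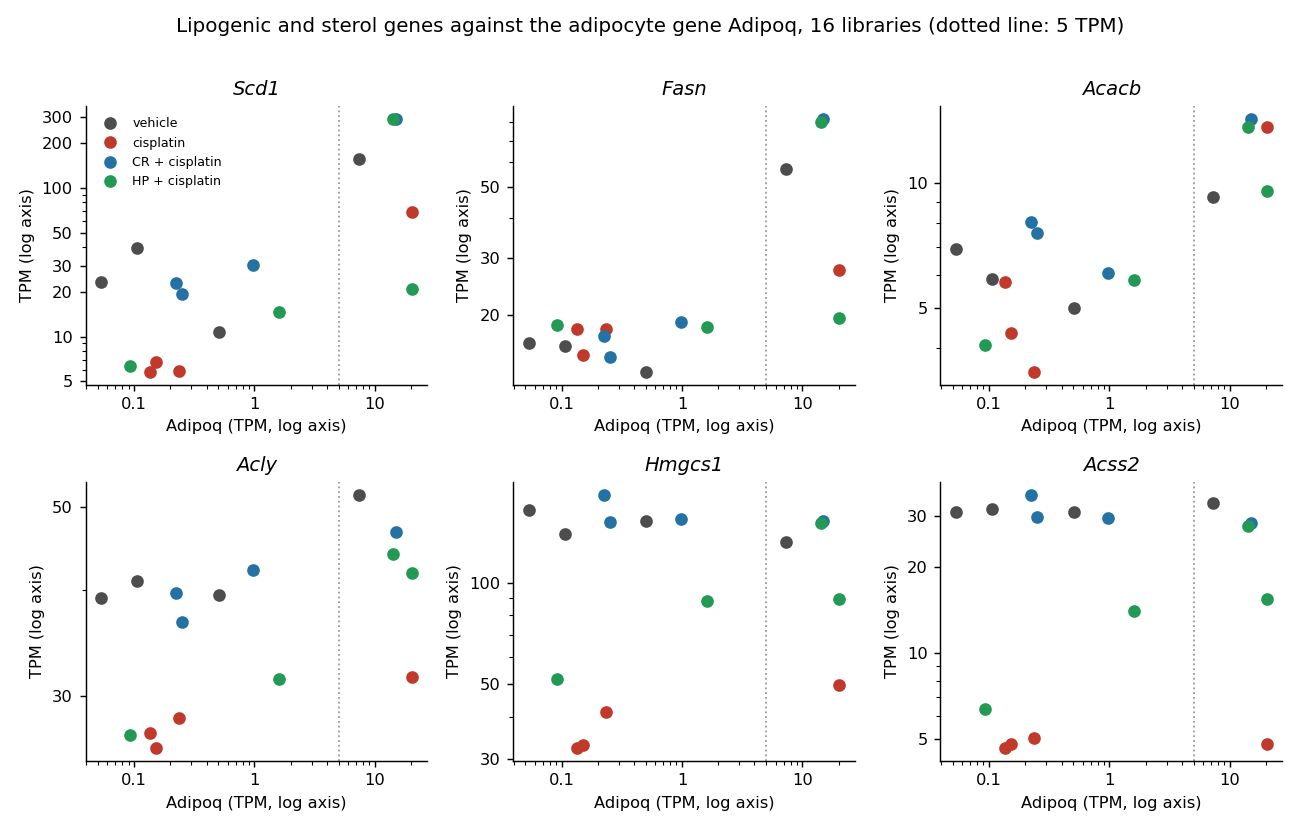
Each point is 1 of 16 libraries, coloured by group, with the TPM of Adipoq on the horizontal axis and the TPM of Scd1, Fasn, Acacb, Acly, Hmgcs1 or Acss2 on the vertical axis (both log axes). Right of the dotted line at 5 TPM, Fasn lies between 19.5 and 81.9 TPM, and left of it between 13.2 and 18.9 TPM, whereas on both sides Hmgcs1 and Acss2 are lowest in the libraries of cisplatin alone, with vehicle and CR libraries overlapping.

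The falls went along with a wide loss of tubule transcripts and a rise of injury transcripts. Summed TPM of 12 proximal tubule markers was 24060 to 29790 in vehicle and 2221 to 2689 after cisplatin alone, and all 12 fell. Summed TPM of 8 injury markers was 221.6 to 437.1 in vehicle and 5497 to 7280 after cisplatin, 7 of which rose. In bulk kidney, fewer cells of a type and less RNA per cell cannot be told apart. All BL_cisplatin titles begin with the code K002000053 and all vehicle titles with K002000059, so the code and cisplatin cannot be told apart here except through CR_cisplatin 1, which carries the first code. With the code as a term, 8 members fell and none rose. They were Cyp51, Acss2, Mvd, Hmgcs1, Fads2, Ebp, Nsdhl and Sc5d, with differences from -3.04 to -0.73. The share of all tested genes called with the code is not given here, so the count does not show whether members stood out. Leaving out the 10 most abundant genes with the mitochondrial and red blood cell genes shifted the median over all tested genes from 0.08 to 0.25 and the share of higher calls among all calls from 56.9% to 68.7%. Under that scaling 16 members fell and 6 rose, Srebf2, Fdft1, Hsd17b7 and Elovl1 joining the risers and Abcg1 and Dhcr7 no longer passing.

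Other genes of sterol handling, 24 in all, had 4 risers and 14 fallers, with a median of -0.39. Those with the smallest adjusted p were Acat1, Lipa, Erlin1 and Nr1h3. Acat1 counts among the 24 but encodes a mitochondrial thiolase of ketone body and isoleucine metabolism (170.5 to 25.7 TPM). Lipa is the lysosomal acid lipase (98.1 to 46.3 TPM). Erlin1 takes part in sterol-dependent protein turnover in the endoplasmic reticulum (15.9 to 4.70 TPM), and Nr1h3 is the LXR-alpha receptor (16.5 to 8.22 TPM). Of 27 tested genes of other lipid synthesis and storage, 6 rose and 7 fell, both smaller shares than the 38% and 28.8% of all tested genes. Pnpla2, the triglyceride lipase, rose from 19.1 to 58.0 TPM and Acsl4, an acyl-CoA synthetase for arachidonate, from 11.5 to 70.3 TPM, while Tecr, the last enzyme of the elongation cycle, fell from 94.8 to 40.9 TPM and Mlx, the partner of the ChREBP factor, from 20.8 to 10.5 TPM.

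With calorie restriction before cisplatin, the sterol enzymes stood at levels close to those of saline-treated kidneys. Against cisplatin alone, 18 of 35 members were higher and 3 lower, where 29.8% of all tested genes were higher and 37.4% lower. The members' median difference was 0.53, beside -0.08 over all tested genes. Of the sterol synthesis enzymes 11 of 15 were higher and 1 lower (median 0.56), and of the fatty acid genes 6 of 13 were higher and 1 lower (median 0.79). This comparison shares the BL_cisplatin libraries with that of cisplatin against vehicle, so opposite directions in both are partly set by the shared libraries.

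Cyp51 measured 51.8, 63.0, 43.4 and 60.6 TPM in the calorie-restricted libraries, all above the 4.16 to 5.04 TPM of cisplatin alone (3.29, SE 0.48, adjusted p = 8.43e-05). Mvd measured 29.0, 29.3, 27.2 and 27.8 TPM, each above every vehicle library as well as every library of cisplatin alone (2.33 against cisplatin alone, adjusted p = 5.83e-05). Hmgcs1 measured 151.8, 182.1, 155 and 152.5 TPM (2.03, adjusted p = 5.83e-05) and Idi1 10.6, 11.7, 8.87 and 10.6 TPM (1.62, adjusted p = 0.000202). Neither overlapped with cisplatin alone. Ebp was higher by 1.34, Nsdhl by 1.26, Mvk by 0.61, Sc5d by 0.56, Dhcr7 by 0.54, Lss by 0.45 and Sqle by 0.43, all without overlap. Acat2, Pmvk and Fdft1 had differences between -0.08 and 0.02 and did not pass. Hsd17b7 was lower by the test (-0.35, adjusted p = 0.0155), a call lost without BL_cisplatin 3 (adjusted p = 0.0509).

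Among the regulators Insig1 was higher (10.7, 11, 10.7 and 14.8 TPM, 0.68, adjusted p = 0.00839), and Srebf1, Srebf2 and Insig2 had differences from -0.01 to 0.09 that did not pass. Scap was lower (-0.24, adjusted p = 0.0386), a call lost on leaving out any of 7 libraries in turn (4 of cisplatin alone and CR_cisplatin 1, 3 or 4, adjusted p up to 0.0937). Neither exporter passed: Abca1 stood at 5.95 ± 1.07 TPM and Abcg1 at 2.74 ± 0.64 TPM.

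Among fatty acid genes Acss2 measured 29.8, 35.6, 29.7 and 28.4 TPM (2.45, adjusted p = 5.83e-05) and Fads2 47.7, 56.6, 57.0 and 47.6 TPM (1.55, adjusted p = 6.82e-05), both far above cisplatin alone. Me1 was higher by 1.03, Scd2 by 0.99, Fads1 by 0.88 and Acly by 0.53. Elovl6 was lower (-0.66, adjusted p = 0.0241), a call lost without BL_cisplatin 4, CR_cisplatin 1, 2 or 3. Scd1 measured 19.3, 23.0, 30.5 and 292.5 TPM and did not pass (1.87, adjusted p = 0.182). CR_cisplatin 4 stood far above the other 3 libraries. Without the 5 libraries of high Adipoq, Scd1 (1.80, adjusted p = 0.00362), Acaca (0.67, adjusted p = 4.71e-05) and Acacb (0.58, adjusted p = 0.0149) passed as higher than after cisplatin alone and Fasn did not (-0.01, adjusted p = 0.961).

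Within the code K002000053 only CR_cisplatin 1 stands against cisplatin alone, with no spread of its own. It differed from the mean of cisplatin alone by 3.23 for Cyp51, 2.41 for Acss2, 2.36 for Mvd, 1.95 for Hmgcs1, 1.43 for Fads2 and 1.35 for Ebp. With the code as a term 13 members were higher and none lower, a count given without the share of all tested genes. Without the code, the share of higher calls among all genes called was 44.4%. With the most abundant genes left out it was 32%, and 18 members were higher and 3 lower as before. Summed proximal tubule markers were 24960 to 27620 TPM and summed injury markers 407.6 to 438.2 TPM in this group. The part of tubule content in the sterol enzyme values was not tested. Of the 24 other sterol genes 15 were higher and 5 lower, where 29.8% of all tested genes were higher and 37.4% lower. Stard4, a carrier of cholesterol between membranes, stood at 8.36 ± 0.0715 TPM against 2.99 ± 0.54 TPM after cisplatin alone. Of the 27 other lipid genes tested 10 were higher and 6 lower, beside the same shares of all tested genes. Pnpla2 stood at 18.7 TPM and Acsl4 at 14.1 TPM, both lower than after cisplatin alone.

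**Figure D4:**
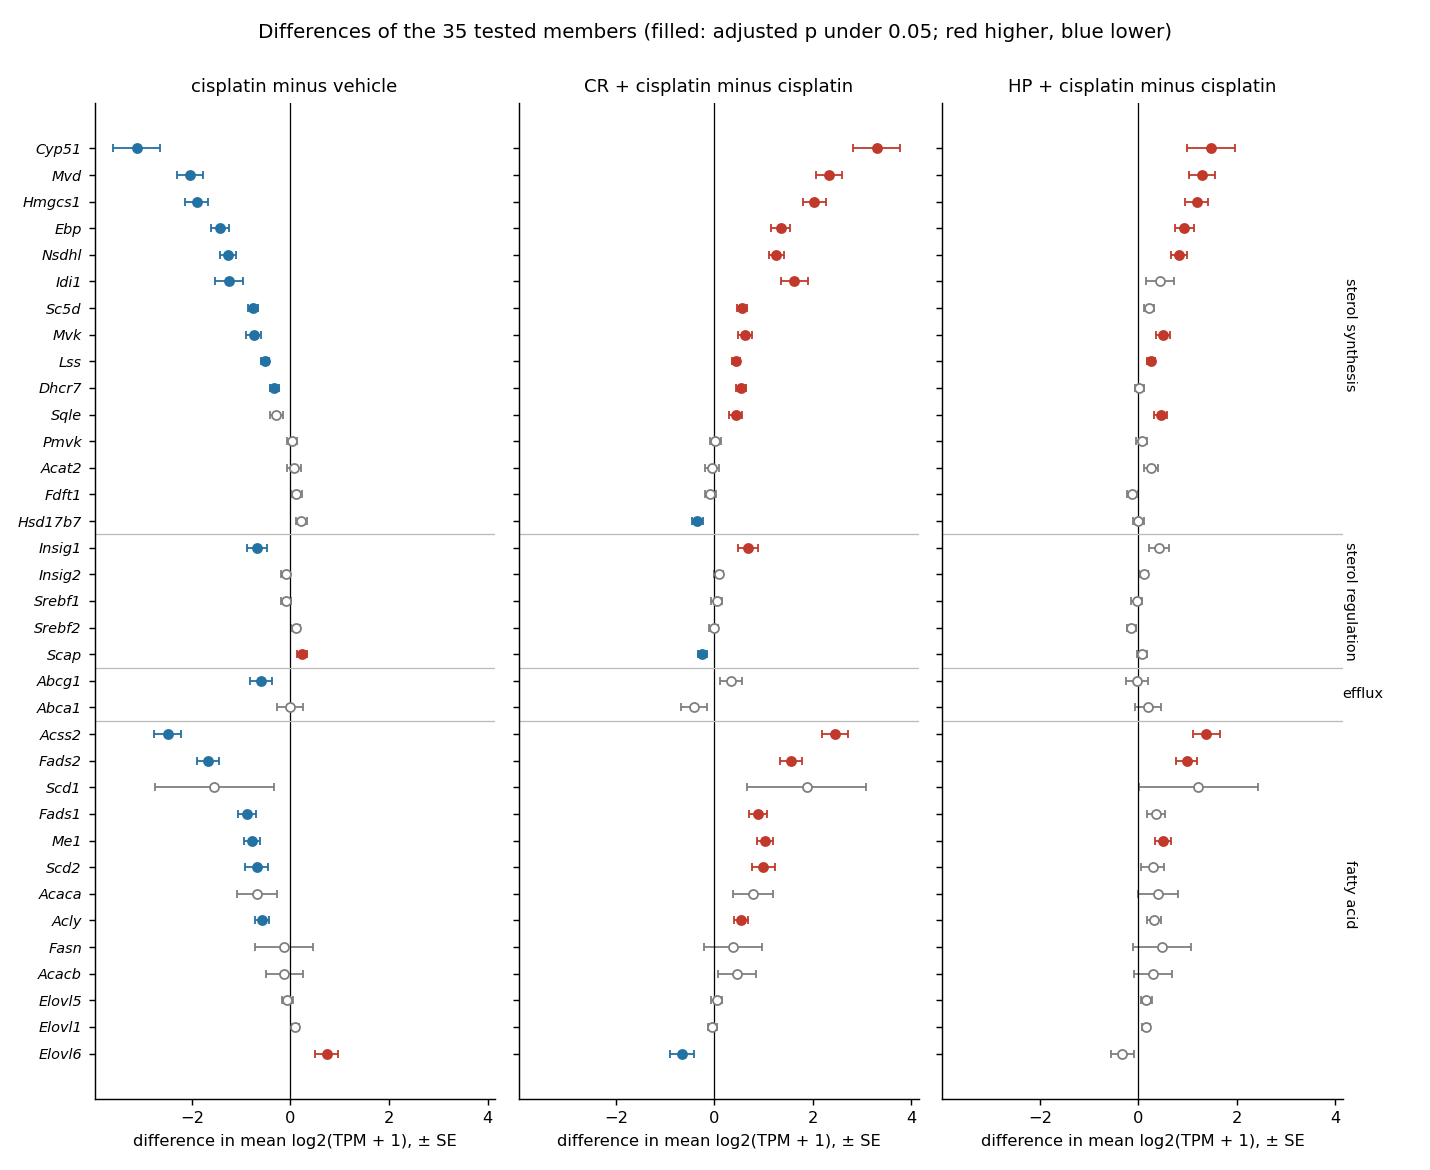
Differences in mean log2(TPM + 1) with their SE for the 35 tested members (rows, by arm), for cisplatin minus vehicle, calorie restriction (CR) plus cisplatin minus cisplatin, and hypoxia (HP) plus cisplatin minus cisplatin. Filled points passed an adjusted p of 0.05 (red higher, blue lower): 18 lower and 2 higher in the left panel, 18 higher and 3 lower in the middle, 11 higher in the right. All 3 panels share the libraries of cisplatin alone.

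Against vehicle, no member passed the limma test in the group with calorie restriction and cisplatin. Over all tested genes 0.0133% were higher and 0.04% lower. At an unadjusted p under 0.05 there was 1 member, Dhcr7 (mean of 3.57 TPM against 2.94 TPM in vehicle), and voom on recovered reads called none, with 2 at an unadjusted p under 0.05. Fitted on those groups alone, limma called 1 member, Mvd, as higher (0.29, adjusted p = 0.0461). Its libraries of 27.2 to 29.3 TPM all lay above the vehicle libraries of 21.3 to 24.1 TPM. That fit also placed Idi1, Me1, Scd2 and Dhcr7 higher and Sc5d and Abca1 lower at an unadjusted p under 0.05. A missed threshold does not show equal levels, and the 95% intervals give the room left at the spread pooled over all 4 groups. They ran from -0.38 to 0.63 for Hmgcs1, -0.28 to 0.86 for Mvd and -0.62 to 0.53 for Acss2. For Cyp51 the interval was -0.87 to 1.20 and for Scd1 -2.25 to 2.91. On the compared groups alone the SE was smaller for Cyp51 (0.16, pooled 0.48), Mvd (0.046, pooled 0.26) and Acss2 (0.069, pooled 0.27). It was also smaller for Hmgcs1 (0.084, pooled 0.23) and Scd1 (1.02, pooled 1.2), but not for Fasn (0.62, pooled 0.59). Within the code K002000059, CR_cisplatin 2 to 4 differed from vehicle by 0.15 for Hmgcs1, 0.28 for Mvd, 0.37 for Idi1 and -0.03 for Acss2, and no member passed without CR_cisplatin 1.

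After hypoxia and cisplatin the members stood between both control groups on average, and the 4 libraries differed widely. Against cisplatin alone 11 of 35 members were higher and none lower, where 16.4% of all tested genes were higher and 13.1% lower. The members' median difference was 0.29, beside -0.02 over all tested genes. Without HP_cisplatin 4 it was 0.19, beside 0.02, and 10 members were higher, where 12.2% of all tested genes were. The 11 were 8 of 15 sterol synthesis enzymes (Cyp51, Mvd, Hmgcs1, Nsdhl, Ebp, Mvk, Sqle and Lss) and 3 of 13 fatty acid genes (Acss2, Fads2 and Me1). No regulator and no exporter passed.

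Hmgcs1 measured 51.8, 89.3, 88.4 and 150.1 TPM in HP_cisplatin 1 to 4, all above cisplatin alone (1.18, SE 0.23, adjusted p = 0.00593). HP_cisplatin 1 lay just above the highest library of cisplatin alone, at 49.6 TPM, and HP_cisplatin 4 within the vehicle range. Mvd measured 6.02, 16, 12 and 25.4 TPM (1.28, adjusted p = 0.00682) and Acss2 6.37, 15.4, 14.0 and 27.7 TPM (1.38, adjusted p = 0.00566), neither overlapping with cisplatin alone. Without HP_cisplatin 4 the differences were 0.93 for Hmgcs1 (adjusted p = 0.00929), 0.98 for Mvd (adjusted p = 0.0103) and 1.07 for Acss2 (adjusted p = 0.00735). Cyp51 measured 4.42, 12.1, 13.0 and 59.5 TPM. Its HP_cisplatin 1 lay inside the range of cisplatin alone and its HP_cisplatin 4 above all vehicle libraries, and the difference of 1.47 (adjusted p = 0.0357) came down to 0.82 (adjusted p = 0.0447) without HP_cisplatin 4. Lss and Me1 did not pass without that library (adjusted p = 0.0726 and 0.0502), while Scap did (0.20, adjusted p = 0.0393). Without CR_cisplatin 4 as well, 7 members were higher.

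The hypoxia calls rested on the pooled spread of all groups. Fitted on HP_cisplatin and cisplatin alone, no member passed, with 11 at an unadjusted p under 0.05, and with the title code as a term none passed, with 6. The differences under the code were 1.08 for Hmgcs1, 1.33 for Mvd, 1.32 for Acss2 and 0.86 for Nsdhl, close to those without it. No title code holds both groups. Without the 5 libraries of high Adipoq, which leaves HP_cisplatin 1 and 3, only Hmgcs1 passed (0.92, adjusted p = 0.0472). Leaving out single libraries gave 7 members without BL_cisplatin 1, 6 without BL_cisplatin 2 or 3 and 7 without HP_cisplatin 2. With the most abundant genes left out the share of higher calls among all genes called went from 55.5% to 30%, and 9 members were higher.

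The intermediate libraries HP_cisplatin 2 and 3 did not hold the same place for every enzyme. On a scale where 0 is the vehicle mean and 1 the mean of cisplatin alone, the 18 members that fell with cisplatin had median positions of 0.89, 0.39, 0.53 and 0.01 in HP_cisplatin 1 to 4 and of -0.05 to 0.01 in the calorie-restricted libraries. In HP_cisplatin 2 and 3, Mvk stood at -0.05 and 0.09, Nsdhl at 0.16 and 0.31, Ebp at 0.22 and 0.23, Mvd at 0.24 and 0.43 and Hmgcs1 at 0.37 and 0.38. Cyp51 stood at 0.61 and 0.58. Idi1 (0.99 and 0.87), Sc5d (0.82 and 0.93) and Dhcr7 (1.35 and 1.15) were near or past the level of cisplatin alone in the same libraries. In TPM, Idi1 measured 2.58, 2.74, 3.12 and 10.5, Sc5d 9.61, 9.92, 9.31 and 14.1, and Dhcr7 1.92, 1.89, 2.03 and 2.98. In each of these 3 genes HP_cisplatin 4 stood apart from the other libraries of its group. Idi1, Sc5d and Dhcr7 did not pass against cisplatin alone (adjusted p = 0.236, 0.113 and 0.889). The unequal positions were not tested.

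Havcr1 and Slc34a1, markers of tissue state, followed a similar order of libraries. Havcr1, the injury receptor of the proximal tubule, stood at 581.9, 51.0, 409.1 and 0.473 TPM in HP_cisplatin 1 to 4, and Slc34a1, the phosphate carrier of healthy proximal tubule, at 23.3, 754, 170 and 1509 TPM. HP_cisplatin 2 had the lower Havcr1 and the higher Slc34a1 of the intermediate pair, and also Adipoq at 20.1 TPM. Some markers of the same sets broke that order. The tubule marker Kap stood at 2219, 3663, 6160 and 23230 TPM in HP_cisplatin 1 to 4. The injury markers Clu and Vcam1 stood at 198.8, 95.2, 200 and 99.1 TPM and at 1.91, 1.90, 2.35 and 1.11 TPM. The part of tissue state and fat in the sterol values was not tested. Srebf1 and Srebf2 differed from cisplatin alone by -0.04 and -0.14 and did not pass. Abca1 measured 6.06, 17.3, 11.9 and 6.37 TPM, with HP_cisplatin 2 and 3 high, and did not pass (0.19, adjusted p = 0.6).

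**Figure D5:**
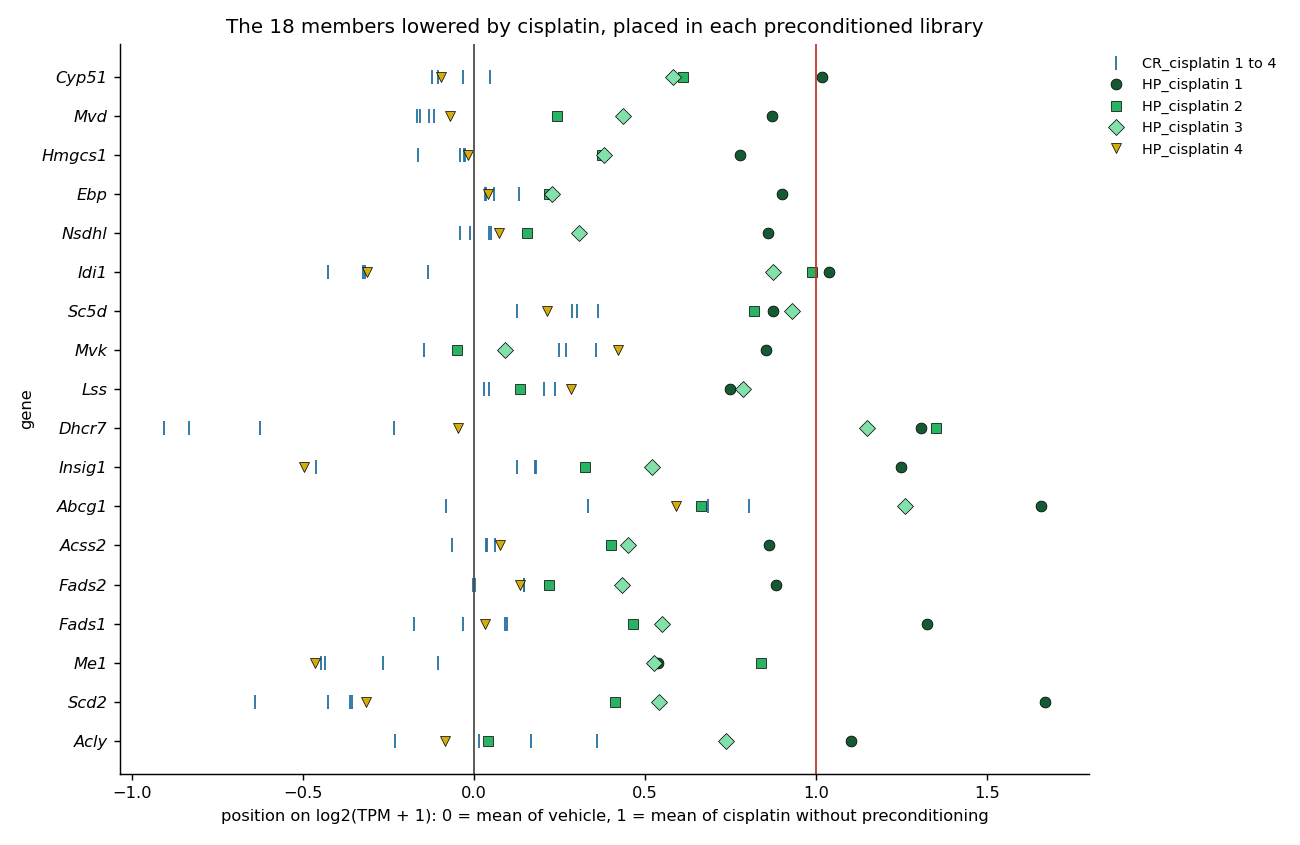
Position of each of the 18 members that fell with cisplatin (rows) in each preconditioned library, on a horizontal axis where 0 is the vehicle mean and 1 the mean of cisplatin alone in log2(TPM + 1). Blue ticks are the 4 calorie-restricted libraries and the other symbols HP_cisplatin 1 to 4. HP_cisplatin 1 (median 0.89) lies near the right line and HP_cisplatin 4 (median 0.01) near the left, while HP_cisplatin 2 and 3 lie between them for most genes and near or past the right line for Idi1, Sc5d and Dhcr7.

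Against vehicle, 11 members were lower and 2 higher after hypoxia and cisplatin, where 10.1% of all tested genes were lower and 19.2% higher. Both groups carry the same title code. The share of higher calls among all genes called was 65.7%, and 51.9% with median-of-ratios scaling. The lower members were 8 sterol enzymes (Cyp51, Idi1, Mvd, Hmgcs1, Sc5d, Nsdhl, Dhcr7 and Lss) and the fatty acid genes Acss2, Fads2 and Fads1, with differences from -1.65 for Cyp51 to -0.25 for Lss. Without HP_cisplatin 4, Cyp51 was at -2.30 (adjusted p = 1.5e-05), Acss2 at -1.43, Idi1 at -1.21, Mvd at -1.05, Hmgcs1 at -0.97 and Lss at -0.28, and the median of the members went from -0.26 to -0.36. Scap (0.30) and Elovl1 (0.25) were higher. On these groups alone no member passed, with 11 at an unadjusted p under 0.05. The count moved with single libraries. It was 21 without HP_cisplatin 4 (17 lower and 4 higher), where 17.9% of all tested genes were lower and 33.5% higher. It was 1 without HP_cisplatin 3 and 2 without HP_cisplatin 1 or without BL_vehicle 1, 2 or 3. Leaving out BL_vehicle 4 gave 4, HP_cisplatin 2 gave 7 and BL_cisplatin 3 or any CR_cisplatin library gave 8. Acat2 joined the higher members without HP_cisplatin 4 (0.45, adjusted p = 0.0107), at 34.2, 45.4 and 52.0 TPM against 27.9 to 36.6 TPM in vehicle. Its near-identical copy Acat3 stood at 65.3, 51.2 and 77.0 TPM in the same libraries against 11.9 to 17.9 TPM in vehicle. The rise of Acat2 is therefore uncertain, and the part of shared reads was not tested.

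Calorie restriction and hypoxia, both with cisplatin, differed in 12 members, 10 of which were higher and 2 lower with calorie restriction, where 9.24% of all tested genes were higher and 15% lower. The higher members were Cyp51 (1.82), Idi1 (1.18), Acss2 (1.07), Mvd (1.04), Hmgcs1 (0.84), Scd2, Me1, Fads1, Dhcr7 and Sc5d, and the lower members Hsd17b7 and Scap, with adjusted p between 0.0275 and 0.0491. The share of higher calls among all genes called was 38.1%, and 50.4% with median-of-ratios scaling. None passed on leaving out any 1 of the CR_cisplatin libraries, HP_cisplatin 1 or HP_cisplatin 3, and 20 passed without HP_cisplatin 4, the library nearly equal to CR_cisplatin 4, where 18.5% of all tested genes were higher and 32.5% lower. Without it the differences were 2.47 for Cyp51, 1.58 for Idi1, 1.38 for Acss2, 1.34 for Mvd and 1.10 for Hmgcs1. The count was 0 on these groups alone, with 12 at an unadjusted p under 0.05. Dhcr7 measured 3.54, 3.83, 3.76 and 3.15 TPM with calorie restriction, above all 4 hypoxia libraries.

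Other lipid genes differed along the same groups. Plin2, the coat protein of lipid droplets, stood at 20.4 to 25.3 TPM in vehicle, 282.7 to 433.6 TPM after cisplatin alone and 18.7 to 25.8 TPM with calorie restriction. In HP_cisplatin 1 to 4 it stood at 445.2, 84.9, 219 and 25.9 TPM. It was higher after hypoxia and cisplatin than in vehicle (2.40, adjusted p = 0.0153) and lower with calorie restriction than with hypoxia (-2.46, adjusted p = 0.0275), and without HP_cisplatin 4 these differences were 3.12 and -3.19. Acsl4 and Pnpla2 were likewise higher than in vehicle after hypoxia and cisplatin (1.66 and 0.84, or 2.08 and 1.00 without HP_cisplatin 4). Against cisplatin alone, the hypoxia group had 8 of 24 other sterol genes higher and 1 lower. Of all tested genes 16.4% were higher and 13.1% lower. Among the higher sterol genes were Nr1h3 (14.2 against 8.22 TPM), Stard4 (6.12 against 2.99 TPM) and Lipa (67.7 against 46.3 TPM). The mitochondrial thiolase Acat1, counted in that list, was higher too (89.7 against 25.7 TPM). Without HP_cisplatin 4 the difference went from 1.55 to 1.18 for Acat1 and from 0.70 to 0.60 for Nr1h3. It went from 0.77 to 0.64 for Stard4 and from 0.53 to 0.41 for Lipa. Of the 24 genes, 5 then passed as higher, where 12.2% of all tested genes did. Of 27 other lipid genes 5 were higher and 2 lower, shares close to the 16.4% and below the 13.1% of all tested genes. Mlx, Agpat3, an acyltransferase of phospholipid synthesis, Tecr and Slc25a1, the mitochondrial citrate carrier, had the smallest adjusted p, from 0.00552 to 0.0136, each of them higher, also without HP_cisplatin 4 (adjusted p = 0.0115 to 0.0232).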

How the data were processed

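The 16 libraries were made from total RNA of perfused kidneys after removal of ribosomal RNA, per the labels' protocols. The authors deposited 1 table of TPM per gene and library. The values bear this unit out, with decimals, an equal sum in each column and steps of 1 read that depend on the gene. Tools listed in the submitters' processing notes are STAR 2.5, Subread 1.5 and featureCounts, and builds GRCm38 and mm10 (no settings or roles), so how reads of near-identical genes and strand were treated is not given in the sources used here. TPM sum to a fixed total in each library, so a rise of abundant genes lowers all others.

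Groups came from the injection and preconditioning labels, and library numbers follow the order of the labels. The members and gene lists were chosen with earlier results of these data known. All 36 members may be named. Of the further sterol and lipid lists, up to 4 genes with the smallest adjusted p past the threshold could be named in each comparison (1 item is not reported here), and Plin2, Ucp1, Acat3 and Ctsb were named with values after these were seen.

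A model of the 4 groups, without covariates, was fitted on log2(TPM + 1) over all 16 libraries (limma 3.58.1, R 4.3.3, statmod 1.5.0; trended, robust prior variance). No count test was planned or used as the main test, since TPM are not counts. Adjusted p-values are 2-sided. Reads were worked back from the TPM steps of single reads: 24591 of 32198 genes above 0 (76.4%) came out whole in all libraries within 0.001 reads at the annotated exon length and 7606 at a length found by search. They give the depth and an alternative test (voom), and were checked on simulated data, as was limma. Other alternatives were a pseudocount of 0.1, no filter, a filter of 5 TPM, other scalings, fits of the compared groups only, the title code as a term, array weights and leaving out libraries. Gene positions are those of GENCODE M21, in which 45229 gene IDs were found. Near-identical transcripts were searched with blastn (at least 90% identity over 300 bases). Copies were also found for Elovl6 (Gm11295), Sc5d (Gm31520) and Scd1 (Scd3), and their part in the levels was not tested.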

Additional observations from a re-analysis of the deposited data

Results flagged for a closer look

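In 18 of 144 sets of a member and a group, 1 library lay further from the other 3 than Dixon's 95% limit for 4 values allows, and chance alone flags about 1 in 20 sets. In the lipogenic genes the flagged library was each time one with Adipoq of at least 5 TPM: Fasn at 56.9 TPM in BL_vehicle 3 (others 13.2 to 16.3), 81.9 in CR_cisplatin 4 (14.8 to 18.9) and 79.7 in HP_cisplatin 4 (18.3 to 19.5), Scd1 at 69.1 in BL_cisplatin 4 (5.79 to 6.74) and 292 in CR_cisplatin 4 (19.3 to 30.5), Acaca at 11.1 in CR_cisplatin 4 (3.72 to 4.21) and Acly at 51.7 in BL_vehicle 3 (39.1 to 41). Srebf1 at 11.6 TPM, Insig2 at 9.34 and Sqle at 7.92 were high in BL_cisplatin 4, and Insig1 at 14.8 was high in CR_cisplatin 4.

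In HP_cisplatin 4, the library that nearly coincided with CR_cisplatin 4, Idi1 at 10.5 TPM (others 2.58 to 3.12), Sc5d at 14.1 (9.31 to 9.92) and Dhcr7 at 2.98 (1.89 to 2.03) stood apart from the other hypoxia libraries. The remaining flags were Hmgcs1 at 182 TPM in CR_cisplatin 2 (151.8 to 155), Acat2 at 36.1 in CR_cisplatin 3 (30.5 to 31.2), Cyp51 at 36.3 in BL_vehicle 4 (51.4 to 53.7) and Hsd17b7 at 6.37 in BL_cisplatin 3 (5.32 to 5.44).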

How the results depend on the processing

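Counts of changed members were stable for cisplatin against vehicle (20 members) and for calorie restriction against cisplatin alone (21), at 17 to 21 and 19 to 22 on leaving out single libraries. With the title code as a term they were 8 and 13. Calorie restriction plus cisplatin against vehicle kept 0 members on leaving out any library and had 1 on the compared groups alone. Comparisons with hypoxia were not stable. Hypoxia against cisplatin alone (11) gave 6 to 15 on leaving out single libraries, 0 on the compared groups alone, 0 with the title code, 24 with array weights, 7 without CR_cisplatin 4 and HP_cisplatin 4 and 1 without the libraries of high Adipoq. Hypoxia plus cisplatin against vehicle (13) gave 1 to 21, then 0, 8, 29, 22 and 22 under the same settings in that order, and 2 with no filter. Calorie restriction against hypoxia (12) gave 0 to 20 on leaving out single libraries, 0 with no filter, 0 on the compared groups alone, 0 with the title code, 30 with array weights and 20 without the libraries of high Adipoq. No member that passed changed direction under any of these settings, and the causes of the differing counts were not tested. The share of all tested genes called under each setting is not given beside these counts. Leaving out the 2 like libraries, those of high Adipoq and the voom fit were chosen after seeing the data. No paired analysis was possible because the labels number no replicates. Members near 1 TPM, such as Lss at 1.39 to 2.84 TPM, have differences that the pseudocount of 1 compresses.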
